A study of Homo sapiens with 9 samples.

Results

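The replication-dependent histone genes were examined in RNA sequencing libraries of CAL-1, a human leukaemia line established from BPDCN, a malignancy of plasmacytoid dendritic cells. They were taken as the rows whose symbol starts with HIST1H, HIST2H, HIST3H or HIST4H and that lay above 0 in at least 1 library, which gave 62 genes of 25540 symbols in the table. By the class written in the symbol, 6 belong to the linker histone H1, 14 to H2A, 18 to H2B, 12 to H3 and 12 to H4; HIST2H2BC, counted with H2B, is annotated as a transcribed pseudogene with no coding sequence. The libraries fall into 3 groups of 3: KHSRPi#1 and KHSRPi#2, labelled as KHSRP knockdown, and the control group NTC, labelled as wild type. All 9 are CAL-1, the knockdown was by CRISPR interference, which represses transcription of its target gene, and the labels do not say what #1 and #2 stand for. The KHSRP protein binds RNA through KH domains and is known for speeding the decay of AU-rich mRNAs.

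Replication-dependent histone genes supply the histones that package newly copied DNA, and their mRNAs accumulate while a cell is in S phase. Most of these mRNAs carry no poly(A) tail and end instead just after a conserved RNA stem-loop, which the stem-loop binding protein SLBP holds through processing, translation and decay. Some of the genes also give rise to longer transcripts with a poly(A) tail, mainly in cells that have stopped dividing. The labels name the kit maker Roche Kapa but not whether RNA was selected by its poly(A) tail, so the levels below belong to whichever forms of these mRNAs the libraries captured.

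Values are deposited TPM, a share of each library per unit of transcript length. A comparison of levels between genes also depends on the transcript lengths used and on which mRNA forms were captured. Every library sums to 1000000 and carries no read total. Symbols with a mean of at least 1 TPM over the 9 libraries (10939) were tested with limma on log2(TPM + 1), a scale that understates the change of low genes. KHSRP itself was at 33.7 to 36.5 TPM in the 6 knockdown libraries and at 216 to 253 TPM in the 3 NTC libraries. The libraries with replicate number 3 in their titles stood apart in every group: against replicates 1 and 2, 3314 genes were called at an adjusted p under 0.05, so knockdown results are also given with a term for those libraries and without them. Of 12 markers of plasmacytoid dendritic cells, 9 were at or above 1 TPM, led by IRF8 at 2516 TPM. IL3RA was listed at 0, and LILRA4 and PTCRA were under 1 TPM. None of 4 T cell, 2 granulocyte, 3 erythroid or 3 stromal markers reached 1 TPM. Of 3 B cell markers PAX5 did (3.13 TPM), as did both NK cell markers, led by NCAM1 at 80.2 TPM. LYZ, the only one of 4 monocyte markers to do so, averaged 62.1 TPM, with the list's sum at 37.1 to 81.5 TPM in knockdown and 36.9 to 91.0 TPM in NTC libraries.

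The stem-loop is the element that sets these mRNAs apart, so the sites of those among the 3 most abundant members of each class that have one annotated are shown with 5 bases on either side. Capitals mark the 6-base left arm, the 4-base loop and the 6-base right arm. The sequences were read from GENCODE 29 transcripts on GRCh38.
HIST1H2AG stem-loop, chr6:27133510-27133535, plus strand: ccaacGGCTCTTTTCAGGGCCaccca
HIST1H2BH stem-loop, chr6:26252050-26252075, plus strand: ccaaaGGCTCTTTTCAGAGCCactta
HIST1H2BN stem-loop, chr6:27839085-27839110, plus strand: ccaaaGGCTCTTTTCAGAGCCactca
HIST1H3H stem-loop, chr6:27810511-27810536, plus strand: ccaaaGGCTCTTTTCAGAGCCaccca
HIST1H4H stem-loop, chr6:26285126-26285151, minus strand: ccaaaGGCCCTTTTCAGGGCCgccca
A search for GGCNCTNNNNAGNGCC in the sense direction, within 200 bases of the stop codon (for HIST2H2BC, anywhere in its transcripts), found the pattern in 26 members. The left arm read GGCTCT in all 20 H2A, H2B and H3 members with a site and GGCCCT in all 6 H4 members with one. Searched over whole transcripts, with no limit of 200 bases from the stop codon, the pattern occurred in 171 of 19631 other protein-coding genes (0.871%). In 32 of the 36 members without a match, no annotated transcript ran 30 bases past the stop codon, so these windows did not hold the place where a site would lie. For 20 members, HIST1H2BH among them, a transcript is annotated to run at least 100 bases past the stem-loop.

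Upstream sequence split the genes by class. Promoter windows from RefSeq (GRCh38.p14; 250 bases before the start and 50 after it) matched 56 members. CCAAT, the box bound by NF-Y, was found on either strand in all 6 H1, 13 H2A, 17 H2B and 10 H3 promoters but in 3 of 10 H4 promoters, against 35.6% of 27239 other promoters. ATTTGCAT, the octamer bound by POU2F1, was found on either strand in 10 of 13 H2A and 13 of 17 H2B promoters, in 1 of 10 H3 promoters and in no H1 or H4 promoter, against 1.71% of the others. AAACACA, known as the H1 box, was in all 6 H1 promoters and in 1 of 13 H2A promoters, against 5.74% of the others. TATAAA in the sense direction was in 55.4% of the members' promoters and 7.58% of the others. One promoter each of H1, H2B and H4 is shown because these classes differ most in the motifs; capitals mark matches to the 4 motifs, in either orientation except for TATAAA.
HIST1H1C promoter, chr6:26056421-26056720, minus strand: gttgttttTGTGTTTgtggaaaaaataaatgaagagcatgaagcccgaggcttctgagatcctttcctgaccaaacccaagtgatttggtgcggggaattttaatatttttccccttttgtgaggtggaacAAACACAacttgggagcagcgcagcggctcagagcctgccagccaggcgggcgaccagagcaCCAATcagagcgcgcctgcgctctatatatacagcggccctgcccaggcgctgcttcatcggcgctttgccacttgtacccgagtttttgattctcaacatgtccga
HIST1H2BH promoter, chr6:26251364-26251663, plus strand: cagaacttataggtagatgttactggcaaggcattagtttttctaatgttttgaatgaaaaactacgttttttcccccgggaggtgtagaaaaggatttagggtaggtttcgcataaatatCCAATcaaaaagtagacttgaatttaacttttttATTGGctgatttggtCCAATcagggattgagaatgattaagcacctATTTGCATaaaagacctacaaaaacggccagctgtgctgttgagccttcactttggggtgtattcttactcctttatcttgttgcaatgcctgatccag
HIST1H4H promoter, chr6:26285485-26285784, minus strand: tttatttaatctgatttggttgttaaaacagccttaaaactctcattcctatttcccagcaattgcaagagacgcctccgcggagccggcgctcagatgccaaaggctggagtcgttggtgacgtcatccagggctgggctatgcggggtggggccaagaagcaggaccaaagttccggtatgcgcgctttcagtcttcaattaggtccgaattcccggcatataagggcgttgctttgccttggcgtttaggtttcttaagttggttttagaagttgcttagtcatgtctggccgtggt
The HIST1H1C window held a CCAAT box and the H1 box in each orientation, the HIST1H2BH window held CCAAT boxes in both orientations and an octamer, and the HIST1H4H window held none of the 4 motifs.

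Histone mRNAs of this kind were low in these libraries. The median member had a mean of 2.88 TPM, against 21.2 TPM for the median tested gene; 51 members reached 1 TPM and could be tested, 17 reached 5 TPM and 6 reached 10 TPM. The 11 members under 1 TPM were 2 H1, 3 H2A, 2 H2B and 4 H3 genes. The 10 most abundant members held 52.6% of the summed TPM. By class, H2B members held 35.1% of it and H4 members 34.2%, against 15.9% for H2A, 8.79% for H3 and 6.01% for H1.

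The most abundant members of each class were HIST1H4C (30.1 TPM over the 9 libraries), HIST1H4A (20.9 TPM) and HIST1H4H (12.5 TPM) for H4, the histone that pairs with H3 at the centre of the nucleosome, and HIST1H2BH (24.8 TPM), HIST1H2BN (11.0 TPM) and HIST1H2BK (10.6 TPM) for H2B. For H2A, the partner of H2B, they were HIST2H2AC (9.53 TPM), HIST1H2AM (7.30 TPM) and HIST1H2AG (5.44 TPM). HIST1H1C led the linker histones at 8.81 TPM, ahead of HIST1H1B (3.28 TPM) and HIST1H1E (3.15 TPM). Among H3 genes HIST1H3H (5.22 TPM), HIST1H3J (3.82 TPM) and HIST1H3C (3.68 TPM) were highest. In comparison, the replication-independent histone H2AFZ alone was at 1587 TPM, and the 62 members together averaged 275 TPM per library. How far the capture of mRNAs without a poly(A) tail enters this contrast was not tested.

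**Figure D1:**
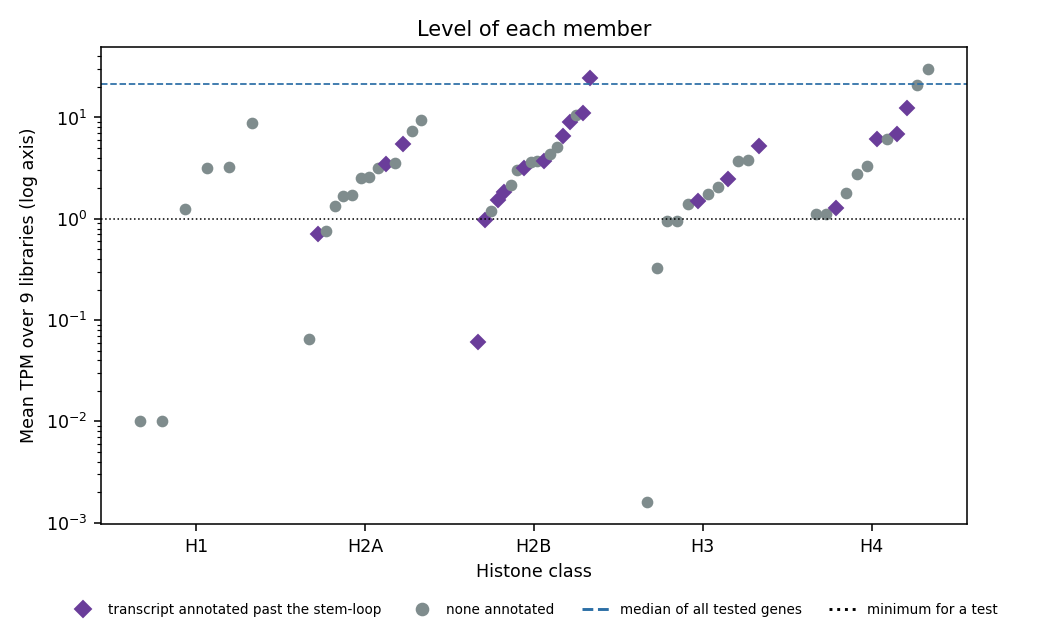
Mean TPM over the 9 libraries for each of the 62 members, by class, on a log axis; diamonds are members with a transcript annotated at least 100 bases past the stem-loop and circles the rest. Most members lie under the median of all tested genes (dashed line, 21.2 TPM), and 11 lie under the 1 TPM needed for a test (dotted line).

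Several genes of these clusters are near-copies, which limits what a row can be read as. Of the 12 symbols listed at 0 in every library, 6 form pairs with identical coding sequences (HIST2H2AA3 and HIST2H2AA4, HIST2H3A and HIST2H3C, HIST2H4A and HIST2H4B). HIST1H4J and HIST1H4K, both members, also share 1 coding sequence. Of the 50-base stretches of coding sequence, HIST1H2BK shared 74.1%, HIST1H2AM 86.3%, HIST1H2BN 36.1% and HIST2H2AC 30.5% with other genes, so their levels are uncertain. HIST1H2BH, HIST1H1C, HIST1H3C, HIST1H4A, HIST1H4C and HIST1H4H shared none. HIST1H2AM overlaps HIST1H3J on the same strand, and HIST1H2BN overlaps HIST1H2AL on the same strand and HIST1H2AK on the other. The sources used here do not say how reads shared by copies or overlapping genes were counted.

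Knockdown set against NTC addresses which mRNA levels change when KHSRP is reduced. Histone mRNAs summed to 270.4 ± 29.8 TPM with KHSRPi#1, 249 ± 14.2 TPM with KHSRPi#2 and 305 ± 19.7 TPM in NTC libraries (SD, n = 3 each). The 6 knockdown libraries ran between 234.6 and 298.9 TPM, and the NTC libraries between 285.3 and 324.8 TPM, so the groups overlapped by 1 knockdown library, KHSRPi#1 replicate 3. The knockdown mean was 75.0% of the NTC mean for H1, 81.8% for H2A, 77.0% for H2B, 79.8% for H3 and 100.7% for H4, and in each class the libraries of the groups overlapped. Single genes weighed on these sums. In H1, HIST1H1C was at 64.2% of its NTC mean, HIST1H1E at 82.3%, HIST1H1D at 94.7% and HIST1H1B at 96.0%. In H2B, HIST1H2BH averaged 20.7 TPM in knockdown and 32.8 TPM in NTC libraries, beside class sums of 87.6 and 113.8 TPM. In bulk RNA, fewer cells in S phase and less histone mRNA per S phase cell cannot be told apart.

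**Figure D2:**
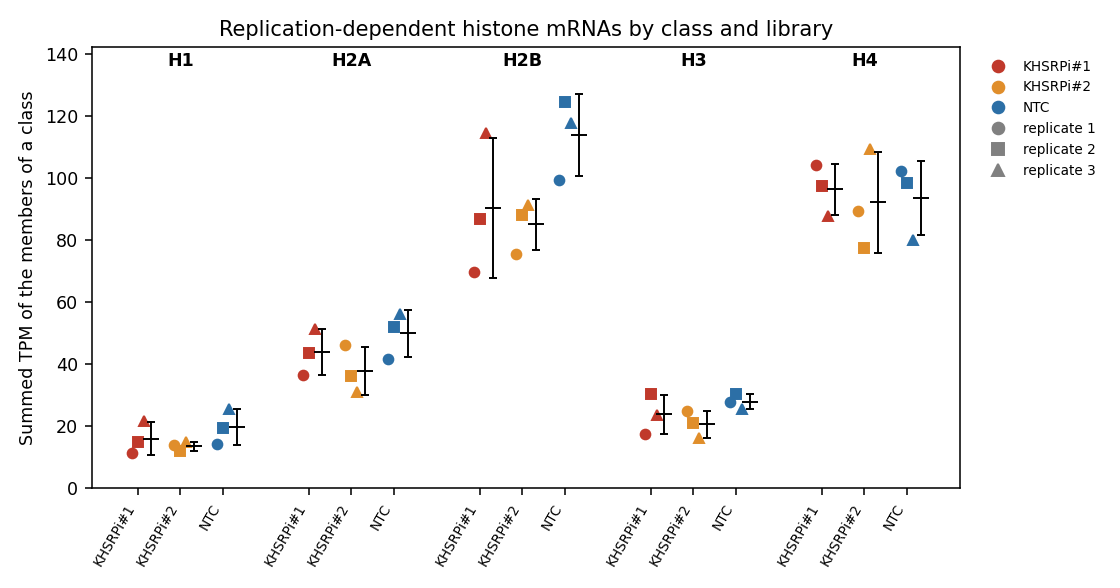
Summed TPM of the members of each class in every library, with KHSRPi#1 and KHSRPi#2 left of NTC; shapes give the replicate number and black bars the mean and SD of 3 libraries. The H2B sums lie at 69.7 to 114.3 TPM in knockdown and 99.1 to 124.5 TPM in NTC libraries, while the H4 sums of knockdown (77.4 to 109.4 TPM) span those of NTC (80.1 to 102.3 TPM).

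No member was called at an adjusted p under 0.05 for the mean of KHSRPi#1 and KHSRPi#2 minus NTC in the fit without covariates, where 0.0823% of all tested genes were called. In that limma fit 10 of 51 members were lower and 2 higher at an unadjusted p under 0.05. Of all tested genes 2.61% were lower and 5.32% higher. Values were below 0 for 38 of the 51 members and for 41.7% of all tested genes, and the median log2 fold change was -0.25 over members beside 0.02 over all tested genes. The median 95% interval of a member reached 0.63 to either side of its value, against 0.16 for all tested genes. Over all genes 5 of the 9 calls were higher, and 4 of 9 with median-ratio rescaling of the libraries, where 10 members and 4.52% of all genes were lower at an unadjusted p under 0.05 and 50.9% of all genes had values below 0. With replicates 1 and 2 alone no member was called either, 18 were lower and 4 higher at an unadjusted p under 0.05, against 4.02% of all genes lower and 5.91% higher, and the median was -0.29. Without NTC replicate 2, 6 members were lower and none higher at an unadjusted p under 0.05, against 2.37% and 6.62% of all genes. The median over members was then -0.15, as it also was without KHSRPi#1 replicate 1.

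By class, 3 of 4 H1, 7 of 11 H2A, 14 of 16 H2B, 6 of 8 H3 and 8 of 12 H4 members had a negative value. The class medians were -0.13 for H1, -0.32 for H2A, -0.23 for H2B, -0.23 for H3 and -0.18 for H4. The H4 genes thus combined a negative median with a sum at 100.7% of NTC, their 3 most abundant members having values of -0.11, 0.23 and 0.38. The medians of members with and without an annotated transcript past the stem-loop were -0.25 (17 genes) and -0.23 (34 genes). For many members the annotation ends at the stop codon, so this split reflects annotation and cannot separate forms of the mRNA. By shared sequence, the medians were -0.25 for the 25 members that share no 50-base stretch with another gene and -0.25 for the 26 that do. Among the 8 members that share at least 50% of these stretches the median was -0.31.

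HIST1H2BH, the most abundant H2B gene (chr6:26251651-26253710, plus strand), was at 16.4, 20.6 and 22.8 TPM with KHSRPi#1, at 16.6, 24.1 and 23.8 TPM with KHSRPi#2, and at 38.2, 30.5 and 29.8 TPM in NTC libraries. Every knockdown library lay under every NTC library. Its difference of -0.65 ± 0.14 (SE) on the log2 scale had an adjusted p of 0.214 in limma. Its TPM gave a two-sided exact permutation p of 0.0119, which is the smallest p that the 84 possible divisions of the libraries allow.

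HIST1H1C (chr6:26055787-26056428, minus strand), the leading linker histone gene, was at 6.86, 7.08 and 10.3 TPM with KHSRPi#1, at 7.22, 6.34 and 6.74 TPM with KHSRPi#2, and at 10.1, 10.7 and 13.9 TPM in NTC libraries. Only KHSRPi#1 replicate 3 reached into the NTC range. Its log2 fold change was -0.58 ± 0.13 (SE; adjusted p = 0.262 in limma; exact permutation p = 0.0238).

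HIST1H2BK (chr6:27146418-27146798, minus strand), an H2B gene, was at 11.4, 10.3 and 9.64 TPM with KHSRPi#1, at 9.95, 7.51 and 8.13 TPM with KHSRPi#2, and at 12.1, 13.1 and 13.4 TPM in NTC libraries. HIST1H3C, which encodes H3 (chr6:26045411-26045821, plus strand), was at 1.09, 3.40 and 3.07 TPM with KHSRPi#1, at 3.08, 3.69 and 2.95 TPM with KHSRPi#2, and at 4.72, 4.92 and 6.18 TPM in NTC libraries. Neither gene's groups overlapped, and the log2 fold changes were -0.41 ± 0.09 for HIST1H2BK and -0.73 ± 0.21 for HIST1H3C (SE; adjusted p = 0.218 and 0.394 in limma; exact permutation p = 0.0119 for each).

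With HIST4H4, an H4 gene on chromosome 12 named here after its values were seen, 4 of 51 members had all 6 knockdown libraries under all 3 NTC libraries, against 1.57% of all tested genes. HIST4H4 was at 0.378, 1.45 and 1.07 TPM with KHSRPi#1, at 0.329, 1.02 and 1.36 TPM with KHSRPi#2, and at 1.51, 2.05 and 2.22 TPM in NTC libraries. None of the 51 had all knockdown libraries above NTC, against 3.1% of all tested genes.

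The 3 leading H4 genes did not share this. HIST1H4C (chr6:26103876-26104310, plus strand) was at 32.3, 33.2 and 23.1 TPM with KHSRPi#1, at 26.9, 26.9 and 33.3 TPM with KHSRPi#2, and at 36.3, 30.1 and 28.5 TPM in NTC libraries. The groups overlapped, and the 95% interval of its log2 fold change of -0.11 ran from -0.39 to 0.16. HIST1H4A (chr6:26021679-26021990, plus strand) was at 23.7, 27.1 and 22.9 TPM with KHSRPi#1, at 21.6, 16.0 and 21.7 TPM with KHSRPi#2, and at 18.8, 18.9 and 17.8 TPM in NTC libraries. All KHSRPi#1 libraries lay above NTC and KHSRPi#2 replicate 2 below it; the log2 fold change was 0.23 ± 0.10 (SE; adjusted p = 0.600 in limma), and without KHSRPi#2 replicate 2 it was 0.31 and called with the term for replicate 3 (adjusted p = 0.0261). HIST1H4H differed by 0.38 ± 0.22 (SE; adjusted p = 0.724 in limma), with 7.67 to 18.5 TPM in knockdown and 8.82 to 11.5 TPM in NTC libraries.

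**Figure D3:**
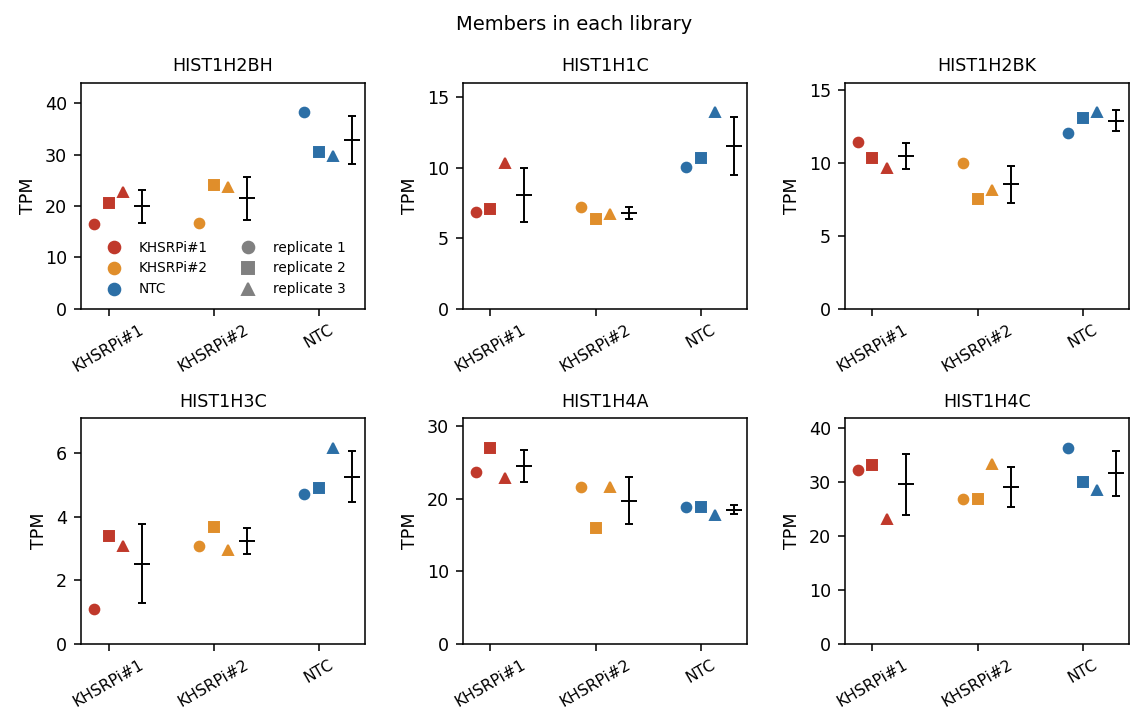
TPM of HIST1H2BH, HIST1H1C, HIST1H2BK, HIST1H3C, HIST1H4A and HIST1H4C in each library, with KHSRPi#1 and KHSRPi#2 left of NTC; shapes give the replicate number and black bars the mean and SD of 3 libraries. HIST1H2BH lies at 16.4 to 24.1 TPM in knockdown and 29.8 to 38.2 TPM in NTC libraries, whereas the HIST1H4C groups overlap.

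The replicate 3 term lowered the spread left to the test, and with it 3 members were called lower and none higher: HIST1H1C (adjusted p = 0.0073), HIST1H2BH (0.0268) and HIST1H2BK (0.0296), all in limma. In that fit 0.485% of all tested genes were called lower. The fold changes themselves were those of the fit without the term. HIST1H1C lost its call without NTC replicate 3 (adjusted p = 0.0768). HIST1H2BH lost its call without NTC replicate 1 (0.107) and without KHSRPi#1 replicate 1 (0.0573). HIST1H2BK lost its call without any 1 of the NTC replicates, KHSRPi#1 replicate 2 or 3, or KHSRPi#2 replicate 3, with adjusted p from 0.0507 to 0.209, and kept it without each of the other 3 libraries. Leaving out a library also added calls in the fit with the term. For the mean of KHSRPi#1 and KHSRPi#2 minus NTC, the members that became called higher were H4 genes. They were HIST1H4A (adjusted p = 0.0261 in limma) and HIST1H4F (0.0146) without KHSRPi#2 replicate 2, and HIST1H4H (0.0156) without KHSRPi#2 replicate 1. HIST1H3C became called lower without KHSRPi#1 replicate 1 (0.0291) or 2 (0.0287), HIST1H2AC and HIST4H4 without KHSRPi#1 replicate 2 (0.0204 and 0.0392), and HIST2H2AC without KHSRPi#1 replicate 3 (0.0438).

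The groups KHSRPi#1 and KHSRPi#2 share their NTC libraries, so their values are given side by side and do not support each other. No member was called for KHSRPi#2 or for KHSRPi#1 against NTC without covariates, where 0.0548% of all tested genes were called in each (in limma, 4 of 6 calls higher for KHSRPi#2 and 4 of 9 with median-ratio rescaling). At an unadjusted p under 0.05, 10 members were lower and none higher with KHSRPi#2, against 1.58% of all genes lower and 5.35% higher. With median-ratio rescaling 11 were lower, against 3.66% of all genes. With KHSRPi#1, 6 were lower and 2 higher, against 2.08% of all genes lower and 3.15% higher. The lower count was 3 without NTC replicate 2, against 2.03% of all genes, and 11 without KHSRPi#1 replicate 3, against 3.96%. With replicates 1 and 2 alone, 13 members were lower and 4 higher with KHSRPi#2, against 2.5% of all genes lower and 5.92% higher, and 14 were lower and 3 higher with KHSRPi#1, against 4.27% of all genes lower and 3.51% higher. The median log2 fold change was -0.29 with KHSRPi#2, where 42 of 51 were negative, and -0.17 with KHSRPi#1, where 35 were negative; for all tested genes it was 0.03 and 0.01.

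With the replicate 3 term, HIST1H1C, HIST1H2BK and HIST1H2AC were called lower with KHSRPi#2 (adjusted p = 0.0113, 0.0213 and 0.0413 in limma), against 0.201% of all genes. No member was called with KHSRPi#1, against 0.238% of all genes called lower; 7 members were lower and 3 higher there at an unadjusted p under 0.05, against 5.84% and 7.3% of all genes, and HIST1H1C was called lower in either rescaled fit with the term. Without 1 of the KHSRPi#2 libraries HIST1H1C or HIST1H2BH was called lower with KHSRPi#1, and without KHSRPi#2 replicate 2 HIST1H4A and HIST1H4F were called higher (adjusted p = 0.0259 and 0.0407 in limma). HIST1H2AC, an H2A gene that shares a divergent promoter with HIST1H2BC 219 bases apart, was at 1.87, 1.46 and 2.16 TPM with KHSRPi#2 and at 5.02, 4.21 and 5.24 TPM in NTC libraries. Its KHSRPi#1 libraries lay at 4.31, 1.72 and 5.39 TPM, of which 2 were within or above the NTC range. In the fit with the term, the log2 fold change was -1.04 ± 0.21 with KHSRPi#2 and -0.36 ± 0.21 with KHSRPi#1 (SE). The KHSRPi#2 call was lost without KHSRPi#2 replicate 1, 2 or 3, without NTC replicate 1, 2 or 3 (adjusted p from 0.0571 to 0.176), and with median-ratio rescaling (0.0540). The HIST1H1C and HIST1H2BK calls with KHSRPi#2 were lost without NTC replicate 3 (0.0767 and 0.137), and that of HIST1H2BK also without KHSRPi#2 replicate 2 (0.0687) or 3 (0.128). Calls with KHSRPi#2 were also gained. HIST1H3G, an H3 gene, became called higher without KHSRPi#2 replicate 3 (adjusted p = 0.0426 in limma) and HIST1H4H without KHSRPi#2 replicate 1 (0.0154). HIST1H2AJ, named here after its values were seen, became called lower without KHSRPi#2 replicate 1 (0.0317), and HIST1H2AL without NTC replicate 1 (0.0495).

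**Figure D4:**
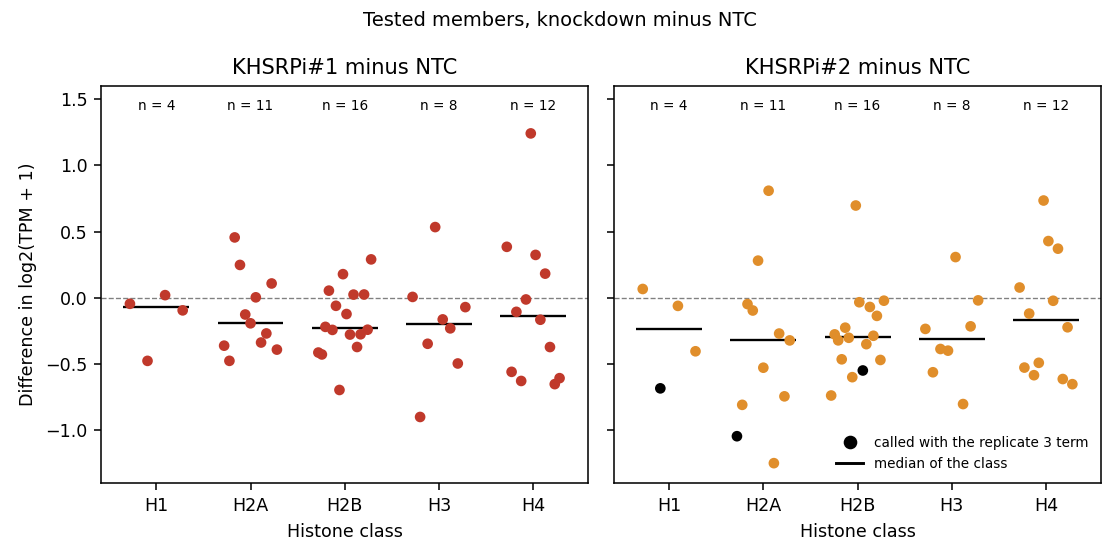
Difference in log2(TPM + 1) from NTC for each of the 51 tested members, by class, for KHSRPi#1 (left) and KHSRPi#2 (right); black lines are class medians and black points the members called with the replicate 3 term. Most points lie under 0, the median over all 51 being -0.17 with KHSRPi#1 and -0.29 with KHSRPi#2.

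Between the knockdown groups, 0% of all tested genes and no member were called for KHSRPi#2 minus KHSRPi#1 in limma, without covariates or with the replicate 3 term. At an unadjusted p under 0.05, 8 members were lower and none higher with KHSRPi#2, against 0.402% and 0.649% of all genes. The median over members was -0.08 beside 0.03 for all genes. The count of 8 fell to 1 without KHSRPi#2 replicate 2 and to 3 without KHSRPi#1 replicate 3, against 0.357% and 0.384% of all genes lower. It was 4 without KHSRPi#1 replicate 2 or KHSRPi#2 replicate 3, against 0.402% and 0.411%. With replicates 1 and 2 alone 8 members were higher and 6 lower, against 1.56% and 0.585% of all genes. With the term and without KHSRPi#1 replicate 2, HIST1H2AC was called lower with KHSRPi#2 (-1.01, adjusted p = 0.0086 in limma). The largest values were those of low genes. HIST1H3F, an H3 gene, differed by -0.93 ± 0.37, with 1.59, 0 and 0.628 TPM with KHSRPi#2 and 0.785, 2.51 and 3.68 TPM with KHSRPi#1. HIST1H2AL, an H2A gene, differed by -0.91 ± 0.35, with 2.22, 1.39 and 0 TPM with KHSRPi#2 and 2.56, 2.70 and 2.88 TPM with KHSRPi#1. HIST1H2AK differed by 0.80 ± 0.45, with 2.83, 1.47 and 1.95 TPM with KHSRPi#2 and 0.271, 1.04 and 1.02 TPM with KHSRPi#1 (SE for all; adjusted p of 1.00 for each in limma). HIST1H4F, an H4 gene, had the largest positive value against NTC, 1.24 ± 0.50 with KHSRPi#1 (SE; adjusted p = 0.919 in limma), at 3.56, 1.71 and 2.80 TPM with KHSRPi#1 and 0, 0.537 and 1.31 TPM in NTC libraries.

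For replicate 3 against the other replicates 7 members were called, in a contrast with far more calls over all genes than any knockdown contrast. Member counts are therefore not comparable between it and the knockdown contrasts. Against replicates 1 and 2 over all groups, 5 members were higher in the replicate 3 libraries, where 18.7% of all tested genes were called higher, and 2 were lower, where 11.6% were; the shares of the 51 members were under both backgrounds. With median-ratio rescaling the split of members was 4 higher and 3 lower, and that over all genes 1792 higher and 1945 lower in place of 2045 and 1269. HIST1H3E, an H3 gene, was lower by 1.18 on the log2 scale (SE 0.14), at 0 to 0.587 TPM with a median of 0.503 TPM in replicate 3 libraries, against 1.28 to 2.66 TPM with a median of 2.03 TPM in the others. HIST1H2BC, an H2B gene, was higher by 0.68 (SE 0.15), at 12.0 to 12.5 TPM with a median of 12.0 TPM in replicate 3 libraries, against 4.05 to 9.55 TPM with a median of 7.82 TPM in the others. HIST1H1B, a linker histone gene, was higher by 0.67 (SE 0.16), at 3.75 to 5.42 TPM with a median of 4.81 TPM in replicate 3 libraries, against 1.71 to 3.24 TPM with a median of 2.89 TPM in the others.

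None of these 3 genes' ranges overlapped between replicate 3 and the other libraries. The remaining calls were HIST1H2BE (0.78), HIST2H2AB (0.68) and HIST1H1C (0.30), which were higher, and HIST1H4J (-0.79), which was lower. HIST2H2AB and HIST1H2BE have a gene annotated on the opposite strand, so their reads are uncertain without strand, as are those of HIST1H4J with its identical copy. All 4 tested H1 genes had positive values, as did 6310 of all 10939 tested genes. The median was 0.45 for H1, 0.20 for H2B, 0.12 for H2A, -0.03 for H4 and -0.18 for H3. Over all tested genes it was 0.03. The labels give 1 batch for all libraries, and what sets replicate 3 apart was not tested. The count of calls moved with single libraries: 3 members were called without NTC replicate 3, 2 without KHSRPi#1 replicate 3 and 11 without NTC replicate 2. These counts stand without the shares of all genes called in the same fits, so they describe only how the calls vary.

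**Figure D5:**
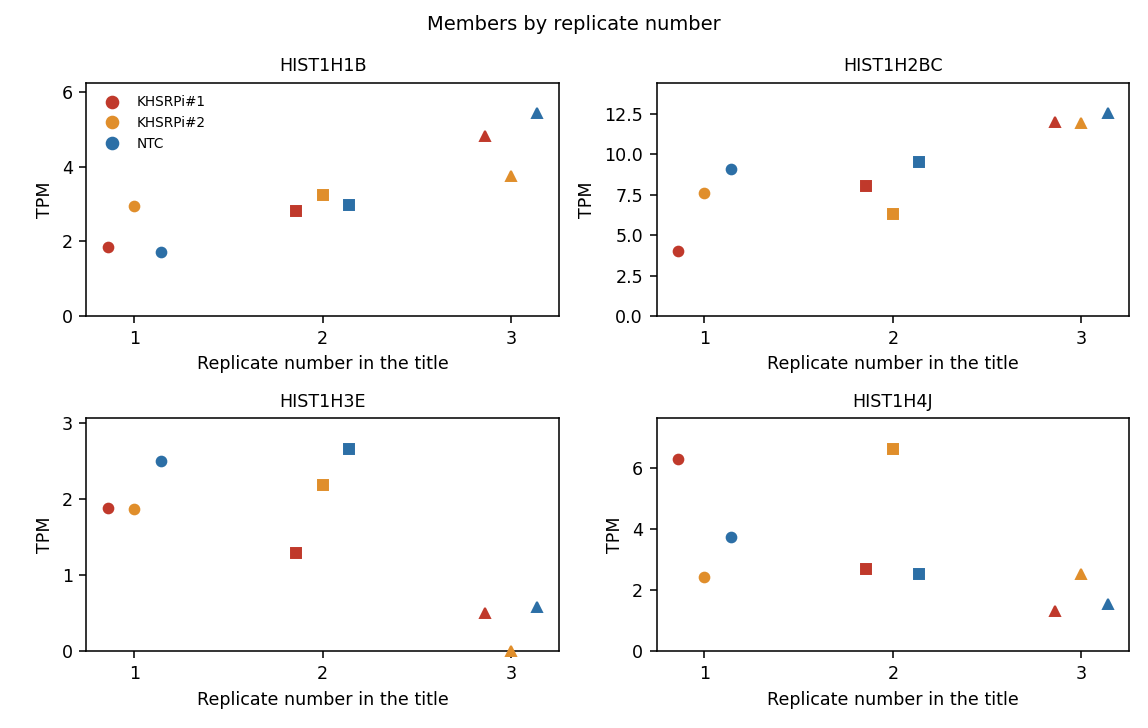
TPM of HIST1H1B, HIST1H2BC, HIST1H3E and HIST1H4J by the replicate number in the title; colours give KHSRPi#1, KHSRPi#2 and NTC. In replicate 3 of all 3 groups HIST1H2BC lies at 12.0 to 12.5 TPM and HIST1H3E at 0 to 0.587 TPM.

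Genes that make, process or carry histone mRNA and protein were listed for comparison. SLBP, the stem-loop binding protein, was at 156 ± 6.66 TPM in knockdown (n = 6) and 153 ± 7.82 TPM in NTC libraries (SD, n = 3). NPAT, the coactivator of histone transcription at the start of S phase, was at 14.9 ± 0.91 TPM in knockdown and 14.5 ± 2.16 TPM in NTC libraries. Their log2 fold changes were 0.03 (95% interval -0.08 to 0.14) for SLBP and 0.04 (-0.15 to 0.24) for NPAT. Of 25 genes of histone mRNA transcription, processing and decay, led in level by the small ribonucleoprotein SNRPF (578 TPM), none was called with or without the term, and their median was 0.03; at an unadjusted p under 0.05 without covariates 1 was higher.

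The 25 S phase genes, led by the replication clamp PCNA (592 ± 9.57 TPM in knockdown and 588 ± 34.0 TPM in NTC libraries), had a median of -0.02 and no call with or without the term in limma. None passed an unadjusted p under 0.05 without covariates, and 2 higher and 1 lower did with the term. Their sum was 3957 to 4084 TPM in knockdown and 3958 to 4128 TPM in NTC libraries. Of 20 histone chaperone genes, led by ANP32E (414 TPM), 1 was called with the term, ATRX, which partners DAXX in depositing H3.3 (log2 fold change 0.31 ± 0.05, adjusted p = 0.0118 in limma), and none without it.

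Of 21 histone genes listed as replication-independent, 10 reached the level needed for a test. The listing was by symbol, and how far each of these mRNAs follows S phase was not tested. None was called without covariates, where 4 were lower at an unadjusted p under 0.05, against 2.61% of all tested genes. With the term 2 were called lower in limma, against 0.485% of all tested genes, and at an unadjusted p under 0.05 there 5 were lower and 1, H3F3C, higher, against 6.36% and 11.1% of all genes. H2AFX, the variant phosphorylated at DNA breaks, was at 61.9, 72.9 and 69.7 TPM with KHSRPi#1, at 65.4, 65.9 and 67.2 TPM with KHSRPi#2, and at 83.5, 77.8 and 85.4 TPM in NTC libraries. All knockdown libraries lay under all NTC libraries, and the log2 fold change was -0.29 ± 0.05 (SE), with an adjusted p of 0.0131 with the term and 0.171 without it. H2AFJ, an H2A variant gene, was at 1.36 ± 0.36 TPM in knockdown (n = 6) and 2.16 ± 0.23 TPM in NTC libraries (SD, n = 3), and its log2 fold change of -0.43 ± 0.09 (SE) had an adjusted p of 0.0435 with the term and 0.466 without it. Without NTC replicate 3 the calls with the term were lost for H2AFX (adjusted p = 0.117), H2AFJ (0.110) and ATRX (0.0840), and without NTC replicate 1 for H2AFX (0.0639). H2AFJ was called in 1 of the 9 fits that each left out a library, that without KHSRPi#2 replicate 3. The list's most abundant gene, H2AFZ, had a log2 fold change of 0.05 ± 0.03 (SE) and was not called.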

How the data were processed

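RNA from 9 CAL-1 libraries in 3 groups of 3 was sequenced, and the table the authors deposited holds TPM by gene symbol. Each column sums to 1000000 and no read totals are given, so depth is unknown and the precision of low genes rests on the replicates. The genome build hg38 is listed, per the submitters' processing notes. Not given in the sources used here are the aligner, counter, annotation and strand setting. Groups and replicate numbers came from the sample titles. Separate cultures are not stated for the replicates, so the spread behind each p-value is that between libraries and may be technical. Identical library pairs numbered 0.

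Symbols with a mean of at least 1 TPM were tested with limma 3.58.1 (R 4.3.3) on log2(TPM + 1), using two-sided moderated tests with a trend on mean level. One fit held all 3 groups without covariates. Benjamini-Hochberg adjustment ran over the 10939 tested genes, and an adjusted p under 0.05 was a call. A second fit added a term for the replicate 3 libraries. Single members were compared by exact permutation over 84 divisions. The fit without covariates was also run on simulated libraries with known changes. These held no shift shared by the replicate 3 libraries, so the run does not bear on that shift. Class sums, counts and medians are descriptions and were not tested.

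The members and gene lists were chosen with earlier results of these data known. Members named are the 3 most abundant tested ones of each class, every called one, the 3 largest fold changes in each direction of each contrast and the 6 smallest p of the replicate 3 contrast; of the lists, SLBP, NPAT, called genes and each list's most abundant gene. Stem-loops, shared 50-base stretches and overlaps came from GENCODE 29 on GRCh38, which may differ from the authors' annotation, and promoters from RefSeq. Python 3.11.15 was used for tables and figures.

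Alternatives were pseudocounts of 0.1 and 5, no filter, a minimum mean of 5 TPM, median-ratio rescaling, quantile normalization, array weights, robust eBayes, separate fits for each pair of groups, a replicate block, the replicate 3 term, replicates 1 and 2 alone, and leaving out each library with and without the term. The 2 rescalings with the term, and the alternatives for the gene lists and permutation tests, were added after seeing the data.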

Additional observations from a re-analysis of the deposited data

How the results depend on the processing

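For the mean of the knockdown groups, for KHSRPi#1 and for KHSRPi#2 against NTC, no member was called under any setting without a term or block, except 1 member with KHSRPi#2 without KHSRPi#1 replicate 2. With the replicate 3 term 3, 0 and 3 members were called, and with the term 3, 1 and 2 under median-ratio rescaling and 3, 1 and 3 under quantile normalization. Leaving out 1 library, with or without the term, gave 0 to 5, 0 to 3 and 0 to 4 members, and 0 to 1 for KHSRPi#2 minus KHSRPi#1. By deviations from group means, 4 of 9 libraries correlated best with a library of their own number, the replicate 3 libraries among them. Between groups, correlations were 0.62 to 0.63 for replicate 3 and 0.21 to 0.23 for replicate 2. For replicate 1 they were 0.04 to 0.32. Because replicate 3 stood apart, these values do not settle whether replicates 1 and 2 were paired. A replicate block gave 6, 0 and 3 calls, all lower; the 6 were HIST1H1C, HIST1H2BH, HIST1H2BK, HIST1H2AC, HIST1H3C (adjusted p = 0.0458 in limma) and HIST4H4 (0.0224). In the gene lists, 3 genes were called with the term, also under both rescalings, 2 with the block and 0 to 3 with 1 library left out. For replicate 3 against the others, 1 member was called with no filter, 2 at a mean of at least 5 TPM, where 17 members were tested, 12 with array weights and 2 to 11 with 1 library left out. Of the 29 named members, some of them named for their fold change so that the count is a description only, 6 had an exact permutation p under 0.05, and 2 to 6 with 1 library left out. The median over members was -0.16 for KHSRPi#2 minus NTC at a pseudocount of 5, and -0.21 for KHSRPi#2 minus KHSRPi#1 at a mean of at least 5 TPM. With 1 library left out it ran from -0.32 to -0.11 for KHSRPi#1 minus NTC and from -0.22 to -0.039 for KHSRPi#2 minus KHSRPi#1, always below 0. The causes of these shifts were not tested. Counts of called members in this section stand without the shares of all genes called under the same settings. They describe only how the calls vary. Of the 29 named members 21 kept the sign of their log2 fold change, knockdown minus NTC, under all settings. The other 8, at -0.25 (HIST1H1E) to 0.44 (HIST1H2BI) in the fit without covariates, were uncalled for this contrast under all settings. HIST1H1B was at -0.0082 with a pseudocount of 5, -0.0046 under median-ratio rescaling, -0.035 under quantile normalization (both also with the term) and -0.020 with array weights. HIST1H3F was at -0.27 with a pseudocount of 0.1 and -0.15 with replicates 1 and 2 alone, and HIST1H3J at 0.046 with array weights. With 1 library left out the ranges were -0.29 to 0.33 for HIST1H1B, -0.56 to 0.0051 for HIST1H1E, -0.0063 to 0.37 for HIST1H2AG, -0.37 to 0.052 for HIST1H2BE, -0.10 to 1.05 for HIST1H2BI, -0.15 to 0.27 for HIST1H3F, -0.13 to 0.34 for HIST1H3G and -0.12 to 0.050 for HIST1H3J. With no read totals, how far depth limits the low members cannot be stated; no fold against a group at 0 is given.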
